A study of Sus scrofa with 27 samples.

Results

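The 10 genes described here belong to the Hippo pathway and to the targets of its effectors, and they were followed in porcine mural granulosa cells (GCs), the cells that line the inner wall of the ovarian follicle. They are YAP1, WWTR1, LATS1, LATS2, TEAD1, AMOTL2, ANKRD1, CCN1, CCN2 and CCN3. They were chosen by name, with earlier results of these data known, and all 10 of 10 were found among 35670 Ensembl identifiers and passed the count minimum that left 11384 genes for testing. The contrast of feed-restricted against full-fed sows, also for CCN3 set against CCN1 and CCN2, was part of that choice. So was the correlation of each gene with CDK1, the kinase that drives entry into mitosis. These are therefore given as descriptions without a test.

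Mural GCs were cut by laser capture microdissection from the largest healthy follicle of each sow, which gave 1 RNA-seq library. The full-fed (FF) group held 13 sows given 6.5 kg of feed per day, and the restricted (RES) group 14 sows given 3.25 kg per day, in the final 2 weeks of lactation. The study picked them from larger groups, taking RES sows that lost the most body weight and FF sows that lost the least. Diet and this selection cannot be told apart in the contrast. All were wild-type first-litter sows of a Large White times Norwegian Landrace cross. After weaning both groups received the same feeding, and ovaries were taken on day 2 after weaning. The libraries were made from total RNA freed of ribosomal RNA, and a follicle stands for its sow, so other follicles of the same ovary were not sampled. Total counts per library were 12299220 to 16021200 in FF and 12942198 to 18120922 in RES. Levels are given as scaled counts, meaning counts divided by the size factor of the library.

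The Hippo pathway is a kinase cascade that reads cell contact, tension and growth factors. The kinases LATS1 and LATS2 phosphorylate YAP1 and its relative WWTR1, also called TAZ, and the phosphorylated coactivators stay in the cytoplasm. Unphosphorylated YAP1 and WWTR1 enter the nucleus and bind TEAD transcription factors, which turn on CCN1, CCN2, ANKRD1 and, as feedback, LATS2 and AMOTL2. In the ovary the pathway is known for restraining follicle growth, and disturbing the actin skeleton of ovarian tissue raises CCN2. CCN1, CCN2 and CCN3 are secreted matricellular proteins of the same family, also known as CYR61, CTGF and NOV.

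The DNA just upstream of the target genes shows where TEAD factors could bind. The letters GGAATG, the core that TEAD proteins prefer, were searched on both strands (CATTCC on the other) in the 250 bases before the annotated RefSeq start of 9 of the genes in build Sscrofa11.1. The windows of 3 of the 9 held them, against 2007 of 19556 windows over all genes (10.3%). These 3 windows, of the targets CCN1, CCN2 and ANKRD1, are shown because they are the ones with a match, with the TEAD letters in capitals and each read 5′ to 3′ on the strand of its gene.
CCN2, chr1:31674148-31674397, plus strand: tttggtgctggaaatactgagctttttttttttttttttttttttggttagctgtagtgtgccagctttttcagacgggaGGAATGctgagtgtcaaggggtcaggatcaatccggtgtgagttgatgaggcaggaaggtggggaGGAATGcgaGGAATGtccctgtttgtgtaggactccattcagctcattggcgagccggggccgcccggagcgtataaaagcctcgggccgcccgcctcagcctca
CCN1, chr4:130395180-130395429, minus strand: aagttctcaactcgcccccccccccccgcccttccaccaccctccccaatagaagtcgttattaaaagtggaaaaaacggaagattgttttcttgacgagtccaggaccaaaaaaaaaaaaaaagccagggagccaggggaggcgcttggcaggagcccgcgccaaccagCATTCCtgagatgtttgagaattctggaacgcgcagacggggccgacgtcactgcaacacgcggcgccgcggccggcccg
ANKRD1, chr14:102612858-102613107, minus strand: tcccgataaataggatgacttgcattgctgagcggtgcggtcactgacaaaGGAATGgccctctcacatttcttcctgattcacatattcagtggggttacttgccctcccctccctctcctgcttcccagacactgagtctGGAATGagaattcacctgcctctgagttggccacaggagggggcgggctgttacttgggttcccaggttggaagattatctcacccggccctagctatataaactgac
CCN2 held the letters 3 times, at 170, 105 and 96 bases before its start. ANKRD1 held them at 199 and 108 bases and CCN1 at 80 bases. The AP-1 letters TGANTCA, which read the same on both strands, were present only in the ANKRD1 window among the 9, apart from its TEAD letters, against 5.27% of all windows. A match of letters is a description and no binding was measured. YAP1, WWTR1, LATS1, LATS2, TEAD1 and AMOTL2 held neither set of letters in these windows.

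The captured cells were checked against markers of granulosa and other cells. The summed scaled count of 10 granulosa markers, among them the inhibin subunit INHA and the activin-binding FST, ran from 78493.5 to 128913.9 in FF, with a median of 98999.6, and from 79175.7 to 157098.6 in RES, with a median of 111138.9, and none of them was called. The sum of 8 endothelial markers had a median of 1662.7 in FF (1194.8 to 2405.2) and of 1183.7 in RES (838.7 to 2365.2). Of the 8, 4 were called lower in RES (EMCN, CDH5, CLDN5 and ESAM), where 5.85% of all genes tested were called lower. The others were not called, with log2 fold changes of -0.54 for TEK, -0.43 for KDR, -0.12 for PECAM1 and 0.40 for TIE1. The sum of 7 theca markers ran from 2636.7 to 13773.7 in FF and from 1412.8 to 12845.4 in RES, with 1 of 7 called lower. Smooth muscle and pericyte markers were called lower for 2 of 8 genes, erythroid markers for 1 of 2, and stroma, immune and oocyte markers for 0 of 7, 0 of 3 and 0 of 2. No marker list was at 0 in every library. The part of these cells in the results below was not tested except where a value is given. In bulk RNA, fewer cells of a type and less RNA per cell cannot be told apart.

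Libraries were also divided by how large a part of their bases passed the quality score of 20 in the read statistics of the study. The upper group held 7 FF and 7 RES libraries and the lower group 6 FF and 7 RES libraries. No sequencing batch is stated, and FF sow 10 may carry the read statistics of FF sow 9, which the sample records name as left out. The values within quality groups depend on that label.

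Across the 10 genes the levels differed far more between genes than between diets. Per kilobase of exon, YAP1 stood highest, with 375.5 ± 52.4 scaled counts (SD) over the 13 FF libraries and 361.0 ± 50.0 over the 14 RES libraries. LATS1 followed at 274.0 ± 27.6 in FF and 282.5 ± 13.6 in RES, and WWTR1 at 202.4 ± 23.6 and 227.2 ± 33.7. These neighbours lay more than their SDs apart. Next in FF came CCN2 (175.1 ± 91.5), TEAD1 (67.1 ± 6.18), CCN1 (58.7 ± 17.8), CCN3 (34.0 ± 37.7), AMOTL2 (24.9 ± 5.38), LATS2 (10.5 ± 2.54) and ANKRD1 (6.48 ± 2.25) scaled counts per kilobase. In that order WWTR1 and CCN2, TEAD1 and CCN1, CCN1 and CCN3, CCN3 and AMOTL2, and LATS2 and ANKRD1 did not differ beyond their SDs. In RES the order was the same except that CCN3, at 9.47 ± 12.4 scaled counts per kilobase, stood below AMOTL2 (23.0 ± 4.95) and just above LATS2 (9.00 ± 1.59).

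**Figure D1:**
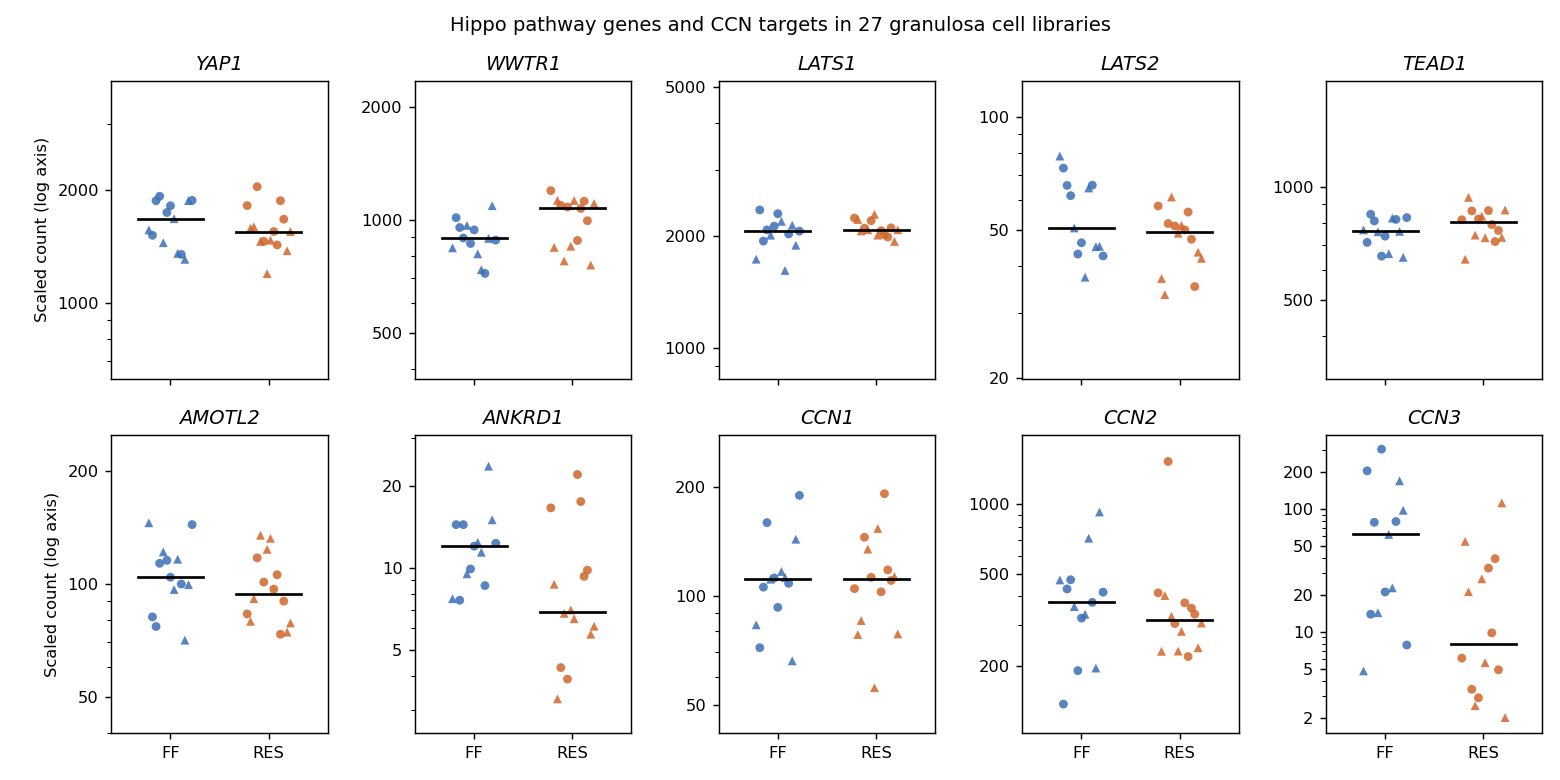
Scaled counts of the 10 genes (y axes, logarithmic) in 13 FF libraries (blue) and 14 RES libraries (orange). Circles are libraries of the upper and triangles of the lower quality group, and black bars are medians. The groups overlap for every gene, and 13 of 14 RES libraries lie below the FF median of CCN3.

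The coactivators came first. YAP1, which carries the transcriptional output of the pathway, had a lowest, median and highest scaled count of 1304.9, 1675.5 and 1923.7 in FF and of 1195.1, 1548.5 and 2040.2 in RES. The groups overlapped almost fully, although 11 of 14 RES libraries lay below the FF median. The log2 fold change of RES over FF was -0.10 (SE 0.08). WWTR1 had 720.3, 893.5 and 1092.9 scaled counts in FF and 758.2, 1079.0 and 1199.2 in RES. Its RES libraries lay higher, with 5 of 14 below the FF median and 6 outside the FF range, and its log2 fold change was 0.12 (SE 0.08). The 2 coactivators had fold changes of opposite sign, both small beside the range within a group.

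The kinases were close to level between the groups. LATS1 had 1615.7, 2057.7 and 2345.0 scaled counts in FF and 1932.2, 2075.4 and 2282.3 in RES, and every RES library lay inside the FF range. Its log2 fold change was 0.00 (SE 0.06). LATS2, which is also a YAP1 target, had 37.3, 50.5 and 78.6 scaled counts in FF and 33.5, 49.4 and 61.1 in RES. Its groups overlapped, and the log2 fold change was -0.25 (SE 0.13).

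LATS1 was among the steadiest genes of the RES libraries. The SD of its log2 scaled count was 0.07 in RES, and only 1 of 9513 genes with a mean of at least 20 scaled counts varied less, since LATS1 ranked 9512 from the widest. In FF the SD was 0.15 and the rank 9122. With TMM scaling, a choice added after seeing the data, the RES value was 0.09 and the rank 9498. The median SD over all these genes was 0.33 in FF and 0.32 in RES. TEAD1 was also narrow, with ranks of 9288 in FF and 9168 in RES.

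TEAD1, the DNA-binding partner of YAP1, had 649.4, 762.0 and 846.9 scaled counts in FF and 641.8, 806.6 and 939.3 in RES, and its log2 fold change was 0.03 (SE 0.06). AMOTL2, a junction protein that holds YAP1 in the cytoplasm and is itself a target, had 70.8, 104.3 and 145.8 scaled counts in FF and 73.4, 94.2 and 135.0 in RES. All its RES libraries lay inside the FF range, and its log2 fold change was -0.15 (SE 0.13).

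Among the secreted and nuclear targets the spread was wider. CCN1, a pro-adhesive matrix protein, had 66.3, 111.5 and 190.0 scaled counts in FF and 55.9, 111.7 and 192.1 in RES. The groups covered the same range, and the log2 fold change was -0.04 (SE 0.17). ANKRD1, an ankyrin-repeat protein of the nucleus and sarcomere, was the lowest gene, with 7.6, 12.0 and 23.6 scaled counts in FF and 3.3, 6.9 and 22 in RES. Of its RES libraries 11 of 14 lay below the FF median and 8 outside the FF range, and the log2 fold change was -0.47 (SE 0.26). Its raw counts were 4 to 22 per library.

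CCN2, a growth-factor-binding matrix protein and the best-known YAP1 target, had 136.5, 376.4 and 927.5 scaled counts in FF and 219.4, 317.1 and 1535.2 in RES. The highest value was that of RES sow 4, and 11 of the 14 RES libraries lay below the FF median. The log2 fold change of RES over FF was -0.08 (SE 0.29). It was -0.47 without RES sow 4 and 0.08 without FF sow 13, so single libraries set its sign.

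CCN3, which in many cells restrains growth and matrix production and often opposes CCN2, had 4.8, 62.1 and 307.4 scaled counts in FF and 2.0, 8.0 and 112.2 in RES. The groups overlapped, with 13 of 14 RES libraries below the FF median and 4 below the lowest FF library. Its raw counts ran from 2 to 279 per library. The log2 fold change was -1.91 (SE 0.60), the 7th lowest of 11384 genes, which is what put CCN3 among the genes chosen. As the contrast was used to choose the genes, nothing is read from the count of them past an adjusted p of 0.05, which was 1 of 10 (CCN3), beside 14.1% of all genes tested called in either direction, 8.29% called higher and 5.85% called lower. CCN3 was also among the genes that varied most within a group, ranking 21 in FF and 29 in RES of 9513 from the widest by SD of the log2 scaled count (1.83 and 1.69). CCN2 ranked 598 and 644.

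The fold change of CCN3 moved with single libraries. It was -1.54 without FF sow 6, which had the highest CCN3, and -2.38 without RES sow 13. Its adjusted p, from which nothing is read, was not under 0.05 without FF sow 2, 6 or 12, without RES sow 1, 6 or 12, or in the lower quality group alone.

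**Figure D2:**
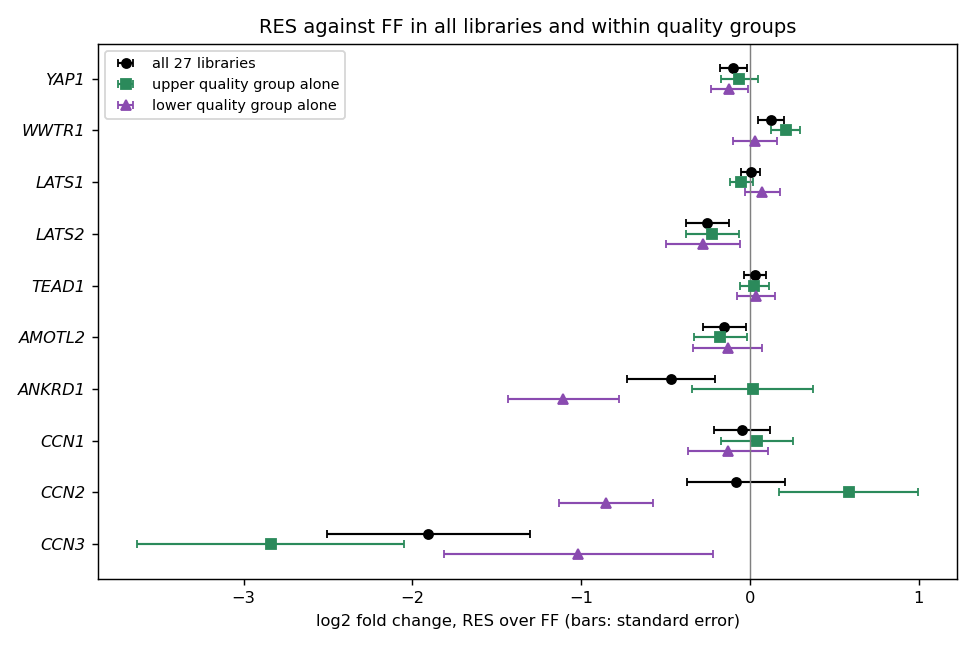
Log2 fold change of RES over FF (x axis) with its standard error for each of the 10 genes, from all 27 libraries (black circles) and from the upper (green squares) or lower (purple triangles) quality group alone. CCN3 lies left of 0 in each, at -1.91, -2.84 and -1.02, while CCN2 lies at 0.59 in the upper and -0.85 in the lower group.

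Within the quality groups the sign of the fold change differed for CCN2, ANKRD1, CCN1 and LATS1. LATS1 had a log2 fold change of -0.05 in the upper and 0.07 in the lower group, and CCN1 of 0.04 and -0.13. CCN3 had a median of 78.0 scaled counts in FF and 6.1 in RES in the upper group, and of 42.4 and 21.2 in the lower group. Its log2 fold change was -2.84 (SE 0.79) in the upper and -1.02 (SE 0.80) in the lower group. CCN2 had a log2 fold change of 0.59 (SE 0.41) in the upper and of -0.85 (SE 0.28) in the lower group. RES sow 4 is in the upper group, and without it the upper value was -0.05 (SE 0.25), a choice added after seeing the data. Without this sow the upper value of CCN1 was -0.01 (SE 0.22), so its sign no longer differed. That of TEAD1 was then -0.003 (SE 0.08), against 0.04 (SE 0.11) in the lower group. With RES sow 4 kept, ANKRD1 had 0.02 (SE 0.36) in the upper and -1.11 (SE 0.33) in the lower group.

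Whether the diet contrast differed between quality groups was tested over all genes with an interaction term, which the choice of genes did not use. At an adjusted p under 0.05, edgeR called 0 of the 11384 genes and 0 of the 10 genes, and at an unadjusted p under 0.05 it counted 1398 genes and 2 of the 10. CCN2 gave a difference of 1.44 log2 units (SE 0.53), upper minus lower, with p = 0.0117 before and 0.309 after adjustment by edgeR. ANKRD1 gave 1.12 (SE 0.48), with 0.0273 unadjusted and 0.364 adjusted by edgeR. Without RES sow 4 the CCN2 difference was 0.80 (SE 0.40), with p = 0.0544 before and 0.416 after adjustment by edgeR. No interaction of CCN3 was called, at -1.82 log2 units (SE 1.198) and an adjusted p of 0.546.

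CCN3 was set against its relatives within each library, which removes the scaling of the library. This comparison was part of the choice of genes and is a description without a test. CCN1 and CCN2 had log2 fold changes of -0.04 and -0.08, so the differences below mostly restate the fold change of CCN3. The log2 ratio of CCN3 to CCN1, with 1 added to each scaled count, had a lowest, median and highest value of -4.44, -1.03 and 1.49 in FF and of -5.26, -4.03 and -0.02 in RES. In 3 FF libraries (FF sows 2, 6 and 12) and in 0 RES libraries CCN3 exceeded CCN1. FF libraries averaged -1.31 ± 1.97 (SD, n = 13) and RES libraries -3.10 ± 1.88 (SD, n = 14), a difference of -1.79 (SE 0.74). The ranges overlapped widely. The log2 ratio of CCN3 to CCN2 was -6.35, -3.23 and 0.69 in FF and -8.45, -4.88 and -1.09 in RES. FF libraries averaged -3.04 ± 2.30 (SD, n = 13) and RES libraries -4.74 ± 2.04 (SD, n = 14), a difference of -1.70 (SE 0.84). CCN3 exceeded CCN2 in 2 FF libraries (FF sows 2 and 6) and in 0 RES libraries.

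**Figure D3:**
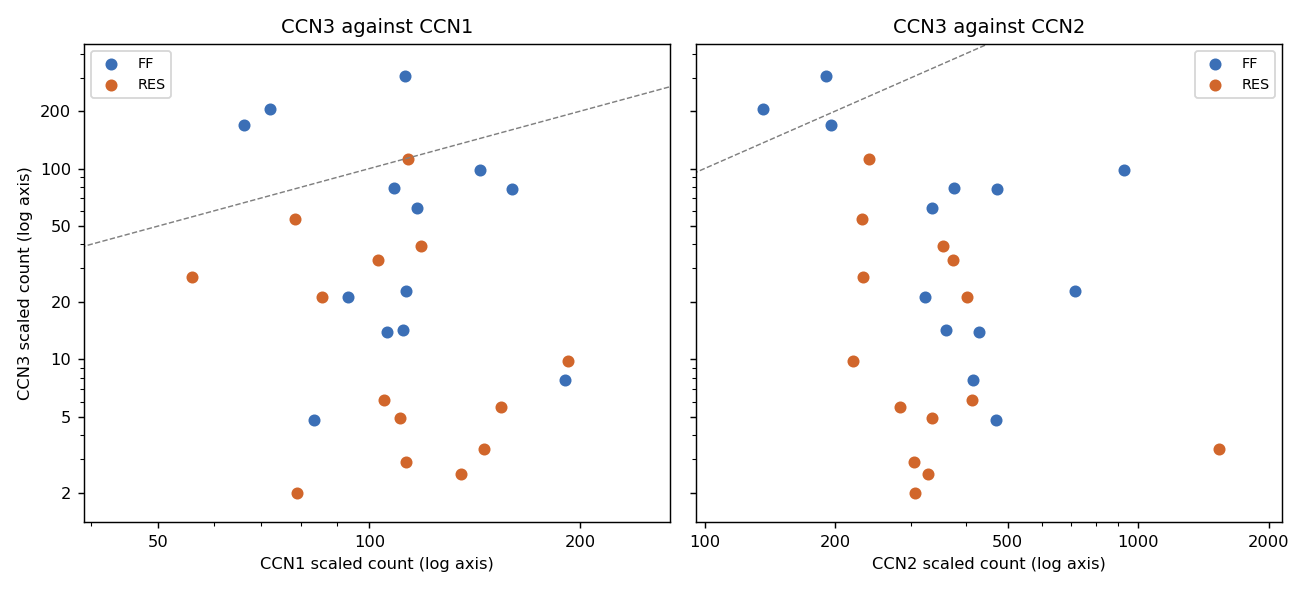
CCN3 scaled count (y axis) against CCN1 (left) and CCN2 (right) per library, all axes logarithmic, with FF in blue and RES in orange. On the dashed line the counts are equal, and 3 FF libraries lie above it on the left and 2 on the right, with 0 RES libraries above it in either.

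FF sows 6, 2 and 12 had 307.4, 204.7 and 169.7 scaled counts of CCN3, and 190.6, 136.5 and 195.6 of CCN2. Over all FF libraries the correlation of CCN2 with CCN3 was not called, with r = -0.46 (permutation p = 0.115, adjusted 0.663, n = 13) and rho = -0.45 (permutation p = 0.132, adjusted 0.592). FF sow 13, with the highest CCN2 of the FF group, had 97.7 scaled counts of CCN3, and RES sow 4, with the highest CCN2 of all, had 3.4. The 2 ratios moved with the quality groups: the difference of CCN3 over CCN2 was -2.79 (SE 1.164) in the upper and -0.53 (SE 1.21) in the lower group, and that of CCN3 over CCN1 was -2.50 (SE 0.99) and -1.06 (SE 1.13).

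The correlation of the genes with each other was not used to choose them and was tested within each group. For 45 pairs in each of 2 groups, Pearson's r of the scaled counts was tested with 100000 permutations, two-sided, and adjusted over the 90. Of the 90, 1 pair was called at an adjusted p under 0.05, and 8 had an unadjusted p under 0.05. The median r was -0.109 in FF and 0.005 in RES.

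The pair called was YAP1 and CCN2 in RES, the coactivator and its target. RES sow 4 had the highest value of both genes, 2040.2 scaled counts of YAP1 and 1535.2 of CCN2, and RES sow 7 the lowest YAP1, 1195.1, with 231.6 of CCN2. Pearson's r was 0.71 (permutation p = 0.00018, adjusted 0.0162, n = 14) and Spearman's rho 0.75 (permutation p = 0.00291, adjusted 0.131). Without RES sow 4, r was 0.70 but no longer called (permutation p = 0.00795, adjusted 0.358). Without the 2 libraries farthest from the median of YAP1, r was 0.64 (permutation p = 0.0236, adjusted 0.404). Within the quality groups, r was 0.74 in the upper (exact permutation p = 0.00575, n = 7) and 0.55 in the lower (exact permutation p = 0.201, n = 7). On the log2 scale, r was 0.76 and still called (permutation p = 0.00054, adjusted 0.0486). The sign was positive in each of these. In RES both genes also had a negative r with summed markers of other cells on the log2 scale, of -0.83 for YAP1 and -0.55 for CCN2 with the endothelial sum, and of -0.76 and -0.53 with the stroma sum. In FF, r with the endothelial sum was -0.56 for YAP1 and -0.68 for CCN2, and with the stroma sum -0.24 and 0.67. CCN2 was called with neither sum in either group, and the part of these cells in the relation was not tested. In FF, r of YAP1 with CCN2 was 0.24 (permutation p = 0.449, adjusted 0.842, n = 13). This r was 0.47 without FF sow 10 and 0.49 after subtracting the mean of each quality group. Without the 2 libraries farthest from the median of YAP1 it was 0.09, and it was called in none of these. The difference between FF and RES was not tested.

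The other 7 pairs with an unadjusted p under 0.05 stayed short of the threshold after adjustment. In FF, LATS1 with CCN2 had r = -0.72 (permutation p = 0.00671, adjusted 0.302) and rho = -0.82 (permutation p = 0.00098, adjusted 0.0882). FF sow 10, with the lowest LATS1 (1615.7 scaled counts), had 714.1 of CCN2, and FF sow 2, with the highest LATS1 (2345.0), had the lowest CCN2 (136.5). YAP1 with CCN1 in FF had r = 0.62 (permutation p = 0.0225, adjusted 0.506) and rho = 0.62 (permutation p = 0.0286, adjusted 0.480). The coactivators YAP1 and WWTR1 in RES had r = 0.54 (permutation p = 0.0482, adjusted 0.511) and rho = 0.59 (permutation p = 0.0291, adjusted 0.480). CCN3 was on the negative side with WWTR1 in RES, at r = -0.58 (permutation p = 0.0184, adjusted 0.506) and rho = -0.27 (permutation p = 0.36, adjusted 0.762). With TEAD1 in FF it had r = -0.57 (permutation p = 0.0363, adjusted 0.511) and rho = -0.59 (permutation p = 0.0378, adjusted 0.486). The remaining 2 were LATS2 with AMOTL2, at r = 0.55, and LATS1 with CCN1, at r = -0.54, both in RES.

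**Figure D4:**
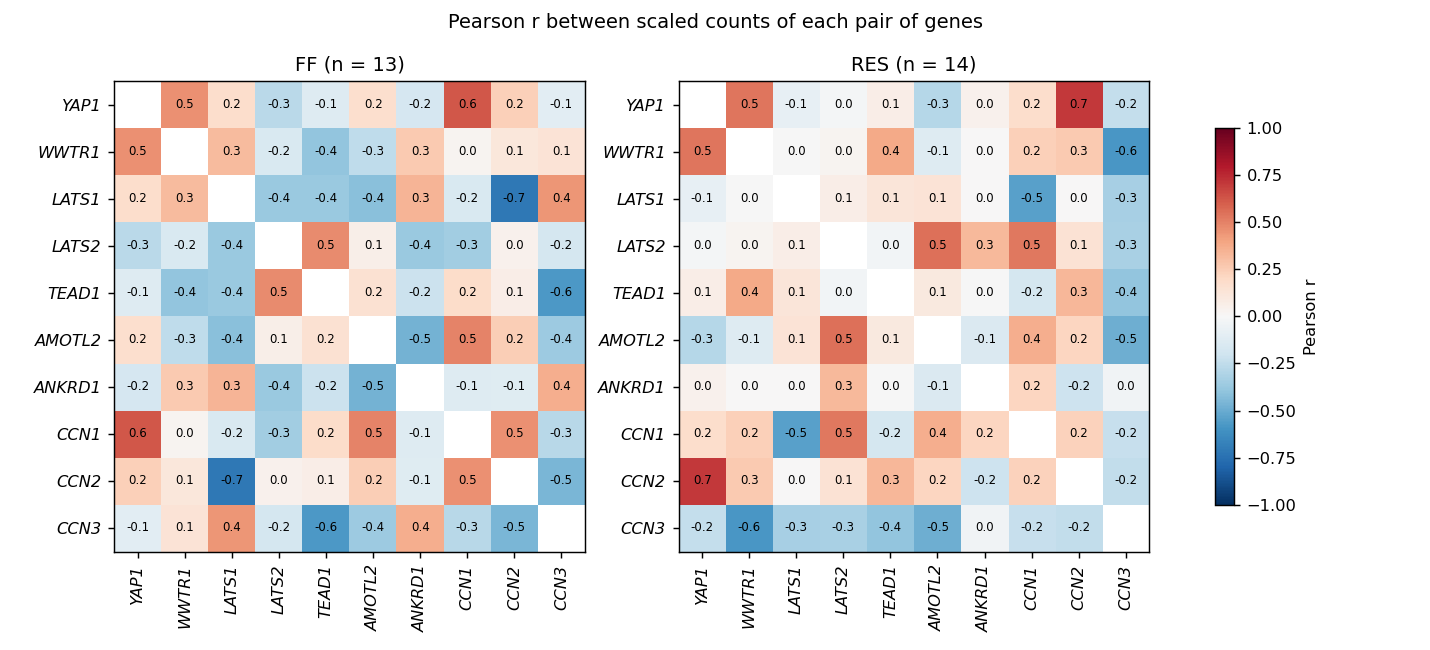
Pearson's r between scaled counts for each pair of the 10 genes within FF (left, 13 libraries) and RES (right, 14 libraries), from blue (-1) to red (1). YAP1 with CCN2 in RES, at 0.71, was the 1 pair of 90 called, and LATS1 with CCN2 in FF stood at -0.72.

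CDK1 itself had 185.5, 552.6 and 1606.8 scaled counts in FF and 399.4, 1434.3 and 2544.6 in RES. As a description, and with no test because this relation was part of the choice, YAP1 had r = 0.51 with CDK1 in FF and 0.59 in RES (rho 0.46 and 0.72). Without the 2 libraries farthest from the median, these were 0.20 and 0.34. Within RES the r of YAP1 was 0.23 for the upper quality group and 0.89 for the lower, and 0.44 without RES sow 7. CCN2 had r = 0.36 in FF and 0.08 in RES while its rho was 0.69 and 0.52, and without RES sow 4 the RES r was 0.57. Without the 2 libraries farthest from the median of CDK1, r of CCN2 was 0.56 in FF and -0.004 in RES. Within RES it was -0.17 for the upper quality group and 0.27 for the lower, and -0.001 without RES sow 7. CCN3 had r = -0.45 in FF and -0.15 in RES. The sign differed between FF and RES for LATS1 (-0.35 and 0.20), LATS2 (0.37 and -0.23), TEAD1 (0.49 and -0.09), AMOTL2 (0.04 and -0.51), ANKRD1 (-0.37 and 0.06) and CCN1 (0.24 and -0.10), and these differences were not tested. On the log2 scale the sign was the same in both groups for LATS1 (-0.44 and -0.02) and CCN1 (0.39 and 0.17), and within the RES libraries LATS1 had 0.71 for the upper quality group and -0.23 for the lower. Without RES sow 7, the RES r was 0.67 for LATS1 and -0.47 for CCN1. ANKRD1 was negative in FF and RES without the 2 farthest libraries (-0.46 and -0.25). The same held in the upper (-0.33 and -0.32) and the lower quality group (-0.52 and -0.08). AMOTL2 was negative in both for the upper group (-0.24 and -0.56), and TEAD1 for the lower (-0.025 and -0.181). WWTR1 had 0.08 and 0.51.

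Each gene was set against the summed markers of 8 cell types within each group on the log2 scale, 160 relations in all, a test added after seeing the data. Of these, 6 were called by Pearson's r, 5 of them YAP1 (theca in FF and in RES, and endothelial, stroma, and smooth muscle and pericyte in RES) and 1 LATS1 (stroma in FF). No test compared the genes with each other. By Spearman's rho 0 of 160 were called, and by Pearson's r 19 had an unadjusted p under 0.05. In RES, YAP1 with the theca sum had r = -0.81 (permutation p = 0.00059, adjusted 0.0331) and rho = -0.61 (permutation p = 0.0221, adjusted 0.295), and r was -0.72 without RES sow 7. With the endothelial sum in RES it had r = -0.83 (permutation p = 0.00025, adjusted 0.0331) and rho = -0.77 (permutation p = 0.0017, adjusted 0.0907). RES sow 7 had the highest theca, endothelial, stroma, and smooth muscle and pericyte sums of the RES group. Without the 2 libraries farthest from the median of YAP1, the RES r was -0.66 for theca and endothelial, -0.68 for stroma, and -0.55 for smooth muscle and pericyte. LATS1 with the stroma sum in FF had r = -0.77 (permutation p = 0.00126, adjusted 0.0403) and rho = -0.82 (permutation p = 0.00087, adjusted 0.0907).

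The FF libraries were split at the largest log2 gap between their theca sums, a rule that gives 2 sets for any data. The split is a description only. In 7 libraries they were 2636.7 to 4090.7 and YAP1 was 1675.5 to 1923.7 scaled counts, and in 6 libraries they were 6472.8 to 13773.7 and YAP1 was 1304.9 to 1564.0. YAP1 did not overlap between these sets, and within them r was -0.10 and -0.06, over only 7 and 6 libraries. STAR, which brings cholesterol into the mitochondria for steroid synthesis, and CYP17A1, the androgen-forming enzyme of theca cells, are among those markers and were named here after their values were seen. STAR had 460.7 to 7914.2 scaled counts in FF and 93.7 to 7812.5 in RES, and CYP17A1 301.8 to 2160.4 and 102.4 to 1895.0. RES sow 7 had the lowest YAP1 of all libraries.

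**Figure D5:**
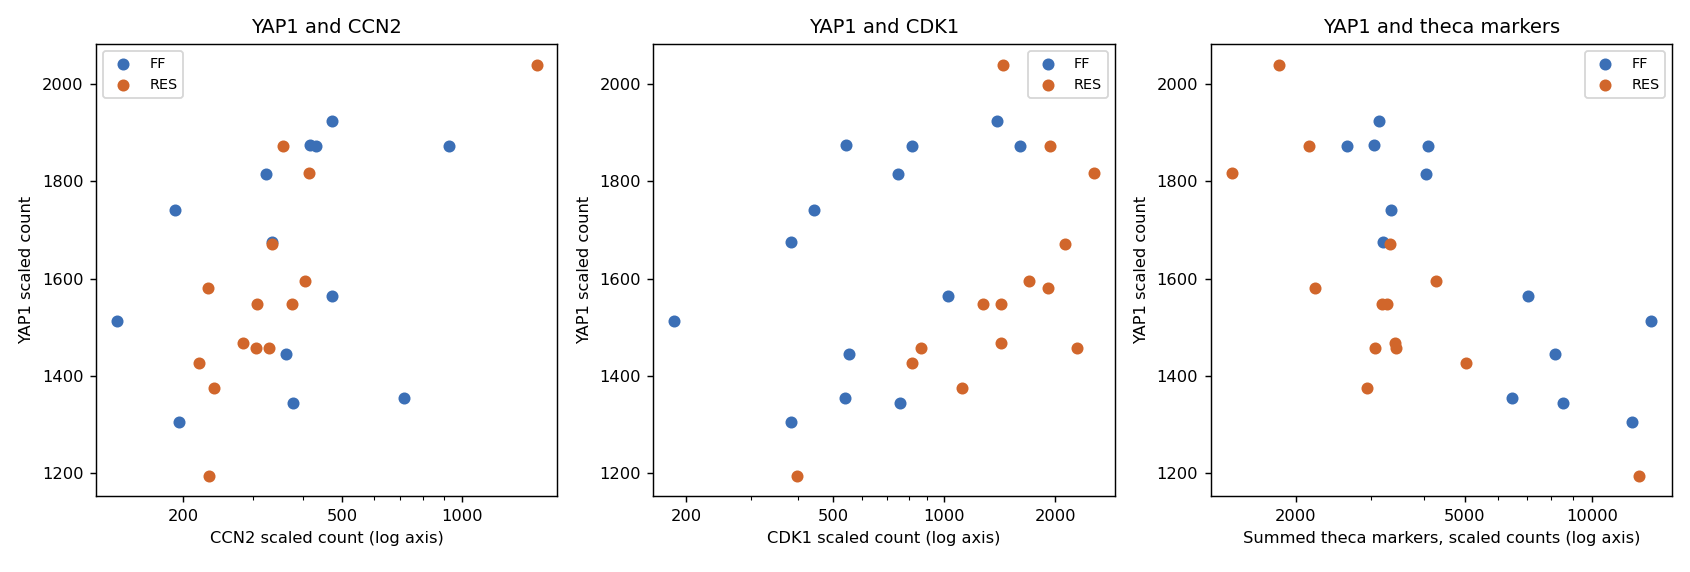
YAP1 scaled count (y axis, linear) per library against CCN2 (left), CDK1 (middle) and the summed theca markers (right), each on a logarithmic x axis, with FF in blue and RES in orange. RES sow 4 is the highest point in all 3 panels at 2040.2, and YAP1 is lower where the theca sum is higher.

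For YAP1, CCN1, CCN2 and CCN3 the genes with the most similar pattern were sought among 9513 genes, by Pearson's r of log2 scaled counts over the 27 libraries after removing each diet group mean. These are descriptions over libraries that share depth and cell content. For YAP1 they were NAP1L2 (0.89), RLF (0.88), CCDC6 (0.81), SP4 (0.79) and RGS7BP (0.79). For CCN2 they were CNR1 (0.84), C2orf68 (0.81), TMEM108 (0.79), PKP4 (0.78) and FSHR (0.78). CNR1 encodes a cannabinoid receptor, and FSHR the receptor for follicle-stimulating hormone of granulosa cells. FSHR had 171.5, 450.6 and 1140.0 scaled counts in FF and 219.6, 592.3 and 2849.9 in RES. For CCN1 the values were lower, from LYRM9 (0.72), PPT1 (0.71), PABPC1 (0.67) and EFNB3 (0.66) to HTRA1 (0.65). For CCN3 they were lowest, from RWDD2B (0.63), MTRF1 (0.60), SUPT7L (0.60) and LSM1 (0.55) to MRPS7 (0.54), so no gene followed CCN3 as closely as NAP1L2 followed YAP1.

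The rest of the pathway was read from lists of other genes in the same fit. Of 62 other Hippo genes, 55 were tested and 6 were called (10.9%, against 14.1% of all genes), 2 higher and 4 lower in RES. Their median log2 fold change was -0.015, the same as the -0.015 over all genes, and 15 had an unadjusted p under 0.05. The 14.1% is for adjusted calls and is no base for this count. Nothing is read from counts at an unadjusted p here and below, as the share of all genes is not given. In the kinase cassette 1 of 5 genes was called, STK4, the MST1 kinase that activates LATS1 and LATS2. STK4 had 177.4, 221.0 and 284.9 scaled counts in FF and 211.8, 266.3 and 327.8 in RES, and rose by a log2 fold change of 0.25 (SE 0.08, edgeR adjusted p = 0.0465). The groups overlapped, and its call was kept for 8 of 27 libraries left out in turn. It was not called in either quality group alone, at 0.35 (SE 0.12) in the upper and 0.13 (SE 0.12) in the lower. STK3, SAV1, MOB1A and MOB1B were not called, with log2 fold changes of -0.14, -0.12, 0.01 and -0.15.

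Among upstream regulators, 5 of 45 were called, where edgeR called 14.1% of all genes tested, 8.29% higher and 5.85% lower. YWHAZ, a 14-3-3 protein that holds phosphorylated YAP1 in the cytoplasm, rose from a median of 6105.6 scaled counts in FF to 7472.1 in RES, a log2 fold change of 0.33 (SE 0.10, edgeR adjusted p = 0.0213). MAP4K3, a kinase that can act on LATS1 and LATS2 in place of MST1, fell from a median of 1244.3 to 1095.6 (log2 fold change -0.29, SE 0.08, edgeR adjusted p = 0.0153). FAT4, an atypical cadherin, fell from a median of 945.5 to 794.9 (log2 fold change -0.40, SE 0.12, edgeR adjusted p = 0.0279). PARD3, a polarity scaffold, and AMOT, the relative of AMOTL2, fell with log2 fold changes of -0.35 (SE 0.11) and -0.37 (SE 0.12), with edgeR adjusted p of 0.0283 and 0.0428. The groups overlapped for all 5. Of 27 libraries left out in turn, the call was kept for 27 for YWHAZ and MAP4K3, 25 for FAT4, 24 for PARD3 and 11 for AMOT. PARD3 was not called with a covariate for RNA integrity, and AMOT not with DESeq2 size factors. With a block for sow number YWHAZ, FAT4 and PARD3 were not called. YWHAZ, FAT4, PARD3 and AMOT were called in neither quality group alone, and MAP4K3 in the upper group only. For PARD3 the log2 fold change was -0.22 (SE 0.14) in the upper and -0.48 (SE 0.16) in the lower group, and for AMOT -0.27 (SE 0.18) and -0.48 (SE 0.18). Leaving out FF sow 6, RES sow 1, RES sow 6 or RES sow 7 moved the count of 6 to 2, 3, 3 and 10. Of 5 other TEAD genes and cofactors tested, 0 were called by edgeR and 2 had an unadjusted p under 0.05, VGLL3 at -0.56 (SE 0.26) and VGLL4 at -0.45 (SE 0.16).

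Other targets of YAP1 and WWTR1 were listed from general knowledge of the pathway. Of 17 signature genes besides the 10, among them FJX1 and PTPN14 that are also in the Hippo list, 13 were tested. Of these 2 were called (15.4%, near the 14.1% of all genes), 1 in each direction, with a median log2 fold change of -0.20. NT5E, which makes adenosine outside the cell, had 15.1, 51.8 and 169.2 scaled counts in FF and 45.9, 209.6 and 586.1 in RES. Its log2 fold change was 1.61 (SE 0.38), given with no test because its change was known before it was listed. Without NT5E, 1 of 12 genes was called (8.33%). MYOF, a membrane-repair protein, had 3791.0, 5792.6 and 9860.6 scaled counts in FF and 2155.1, 4339.6 and 6699.3 in RES, and fell by 0.56 on the log2 scale (SE 0.16, edgeR adjusted p = 0.0204). Both overlapped between groups. In the lower quality group alone MYOF was not called, with log2 fold changes of 0.91 (SE 0.51) for NT5E and -0.05 (SE 0.16) for MYOF, against 2.13 (SE 0.44) and -1.05 (SE 0.21) in the upper group.

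CCN1 and CCN2 are also induced within minutes by serum, so immediate early genes were listed beside them. Of 25, 20 were tested and 2 were called (10%, against 14.1% of all genes), both lower (5.85% of all genes were called lower), with a median log2 fold change of -0.005. KLF2, a transcription factor raised by flow, had 31.5, 48.6 and 71.2 scaled counts in FF and 12.7, 30.2 and 61.9 in RES, and fell by 0.77 on the log2 scale (SE 0.21, edgeR adjusted p = 0.0132). NR4A2, an orphan nuclear receptor below the level set for naming and named after its value was seen, had a log2 fold change of -0.74 (SE 0.21, edgeR adjusted p = 0.0184). In the lower quality group alone neither was called, with log2 fold changes of -0.33 (SE 0.25) for KLF2 and -0.53 (SE 0.33) for NR4A2, against -1.29 (SE 0.27) and -1.03 (SE 0.22) in the upper group. KLF2 is also high in endothelium, and the endothelial sums given above were lower in RES. Its part in this was not tested. Of the other CCN genes 2 were tested, CCN4 at -0.29 (SE 0.34) and CCN6 at 0.34 (SE 0.16), and edgeR called 0 of them, with 1 at an unadjusted p under 0.05. Of 11 genes of the growth factor and actin route that also induces CCN1 and CCN2, edgeR called 0, with 1 at an unadjusted p under 0.05.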

How the data were processed

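Libraries of mural granulosa cells from 13 FF and 14 RES sows were sequenced from total RNA after ribosomal RNA removal. According to the methods and the submitters' processing notes, the authors aligned reads with HISAT2 2.2.1 to Sscrofa11.1, removed PCR copies with UMI-tools 1.1.4, and counted reads on exons with featureCounts 1.6.2. The deposited files hold raw counts for each Ensembl gene, with no normalization applied. The counting command names no strand option, so genes overlapping on opposite strands cannot be told apart.

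The 10 genes and all lists were chosen with earlier results of these data known. Symbols came from a table of Ensembl identifiers and stand in for protein-coding genes, and 15623 of 35670 identifiers had one. Identifiers averaging 5 counts or more were kept and 38 small RNAs left out, giving 11384 genes. Some list genes without a symbol were not analysed here. RES against FF was tested with edgeR 4.0.16 (TMM, quasi-likelihood, R 4.3.3) and Benjamini-Hochberg adjustment, at 0.05. Scaled counts used size factors of DESeq2 1.42.0. A pseudocount of 1 was used on the log2 scale. Pearson correlations were tested by permutation (numpy 2.4.6, scipy 1.17.1), and within quality groups over all permutations. Named genes were the 10, CDK1, called list genes with a mean of at least 20 scaled counts (up to 5 per direction), and the 5 genes most similar to YAP1, CCN1, CCN2 and CCN3. Exon lengths, positions and upstream sequences came from RefSeq for Sscrofa11.1, where 10 of 10 genes matched, CCN1 to CCN3 under their older symbols. The upstream window of 1 gene is not reported here. Sows are separate animals. Between any 2 libraries at least 97.27% of tested genes had different counts. Alternatives were DESeq2 tests and size factors, limma 3.58.1 voom weights, other count filters, all identifiers, covariates for quality, RIN or a replicate block, and leaving libraries out. The tests were tested on simulated data. Follicle size and staining were not used here.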

Additional observations from a re-analysis of the deposited data

How the results depend on the processing

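Of all genes, 1610 were called, and 1084 with a replicate block, 3193 with voom and sample quality weights, 1 in the lower quality group alone, and 1182 to 2350 with a library left out. The share called higher, 58.6%, was 69.6% with DESeq2 size factors, 70.2% with all identifiers and 67.6% with the DESeq2 Wald test. Of the other Hippo genes, 6 were called, and 2 with the replicate block, 14 with voom weights, 0 in the lower quality group, and 2 to 10 with a library left out. Of the other signature genes, 2 were called, and 0 with the replicate block, 4 with voom weights, 4 with the upper quality group alone, 0 with the lower one alone, and 2 whichever library was left out. Of the CCN, immediate early and actin-route genes, 2 were called, 5 with the upper quality group alone, 0 with the lower one alone, and 2 whichever library was left out. The cause of these moves was not tested. The count of 1 correlated pair became 0 with Spearman's rho, TMM scaling, residuals within quality groups, without the 2 farthest libraries and without RES sow 4 (the last added after seeing the data), and stayed 1 on the log2 scale and without FF sow 10. The differences of the CCN3 ratios kept their sign under every alternative run, including pseudocounts of 0.5 and 5. They also stayed within 1 SD, but the SDs within FF and within RES were larger than the differences themselves. Losing the whole difference would have passed this limit too, so it says nothing on how steady their size was. For CCN3 over CCN2 the size ranged from -2.79 (SE 1.164, upper quality libraries only) to -0.53 (SE 1.21, lower quality libraries only). The fold changes of CCN2 and ANKRD1 moved by more than 1 SD in the lower quality group, to -0.85 and -1.11.

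Sow numbers did not pair the libraries. Of 13 pairs with the same number, deviations correlated at -0.221 to 0.297, 1 over 0.1, and 0 FF sows correlated best with their own number. ANKRD1, with raw counts of 4 to 22, could not be tested under filterByExpr, and its depth limits any statement on it.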
